A study of Rattus norvegicus with 8 samples.

Results

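Levels of 8 cytokine genes were followed in rat stellate ganglia, with 1 RefSeq record each out of the 18314 records quantified: the inflammatory cytokines Il1b (NM_031512), Il6 (NM_012589), Il18 (NM_019165) and Tnf (NM_012675), the chemokine Ccl2 (NM_031530), the growth factor Tgfb1 (NM_021578) and the neuropoietic cytokines Lif (NM_022196) and Cntf (NM_013166). They were chosen by name as inflammatory or neuropoietic cytokines, with earlier results of these data known. Ccl2, which encodes the monocyte chemoattractant MCP-1, was higher in all 4 spontaneously hypertensive rats (SHR) than in all 4 Wistar rats and was the only one of the 8 past the threshold between the strains, by a narrow margin. Il18, Cntf, Il1b and Tgfb1 were detected in every rat and did not pass it. Il6, Tnf and Lif were too low to judge.

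The sympathetic neurons of the stellate ganglion supply the heart, and in the SHR, an inbred strain with a raised blood pressure, they are overactive. RNA of the right stellate ganglion was sequenced from 4 male Wistar rats and 4 male SHR aged 16 weeks, as 1 library per rat from a single ganglion that had been cleaned and stripped of its sheath. No rat was treated. The control was the normotensive Wistar, the stock from which the Wistar-Kyoto strain derives, so strain background and hypertension cannot be told apart in this comparison. Deposited counts of the libraries summed to between 30112271 and 35509074 in Wistar and between 25820299 and 34026714 in SHR. The tissue label fits its markers, since the summed TPM (a relative transcript level corrected for transcript length) of the sympathetic neuron markers ran from 27232 to 33100 in Wistar and from 28560 to 33189 in SHR. Whole ganglia also hold Schwann cells, satellite glia, fibroblasts, vessels and macrophages, and in bulk RNA fewer cells of a type and less RNA per cell cannot be told apart.

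Interleukin-1 beta and interleukin-18 are made as inactive precursors that the protease caspase-1 cuts inside an inflammasome, so their mRNA levels are not their levels of active protein. Tumour necrosis factor and interleukin-6 are secreted mainly after an inflammatory stimulus, and MCP-1 draws monocytes into tissue through its receptor CCR2. Transforming growth factor beta 1 is stored in a latent complex and signals through SMAD proteins. Interleukin-6, leukaemia inhibitory factor (LIF) and ciliary neurotrophic factor (CNTF) share the receptor subunit gp130, encoded by Il6st, which activates JAK kinases and STAT3. In sympathetic ganglia LIF is known as an injury signal released by glia, and LIF and CNTF shift sympathetic neurons in culture from a noradrenergic towards a cholinergic and peptidergic phenotype. CNTF is held in the cytoplasm of Schwann cells and lacks a signal peptide.

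The 8 cytokines covered a wide range of levels, compared here in TPM because it is corrected for length. Il18 had the highest mean TPM over the 8 rats, 175.6, and stood above 95.1% of all records. Ccl2 followed with 54.1 (above 87.8% of records) and Cntf with 9.22 (above 67.3%). Il1b (0.991), Tgfb1 (0.552), Tnf (0.115), Il6 (0.0890) and Lif (0.0823) all lay below the median of 2.66 over all records. Il18 exceeded Ccl2 in 8 of 8 rats, although their ranges overlapped because of a single SHR. The ranges of Ccl2 and Cntf did not meet, nor did those of Cntf and Il1b. From Il1b downwards each cytokine overlapped with the next, so no order is given for Il1b against Tgfb1, Tgfb1 against Tnf, or among Tnf, Il6 and Lif.

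**Figure D1:**
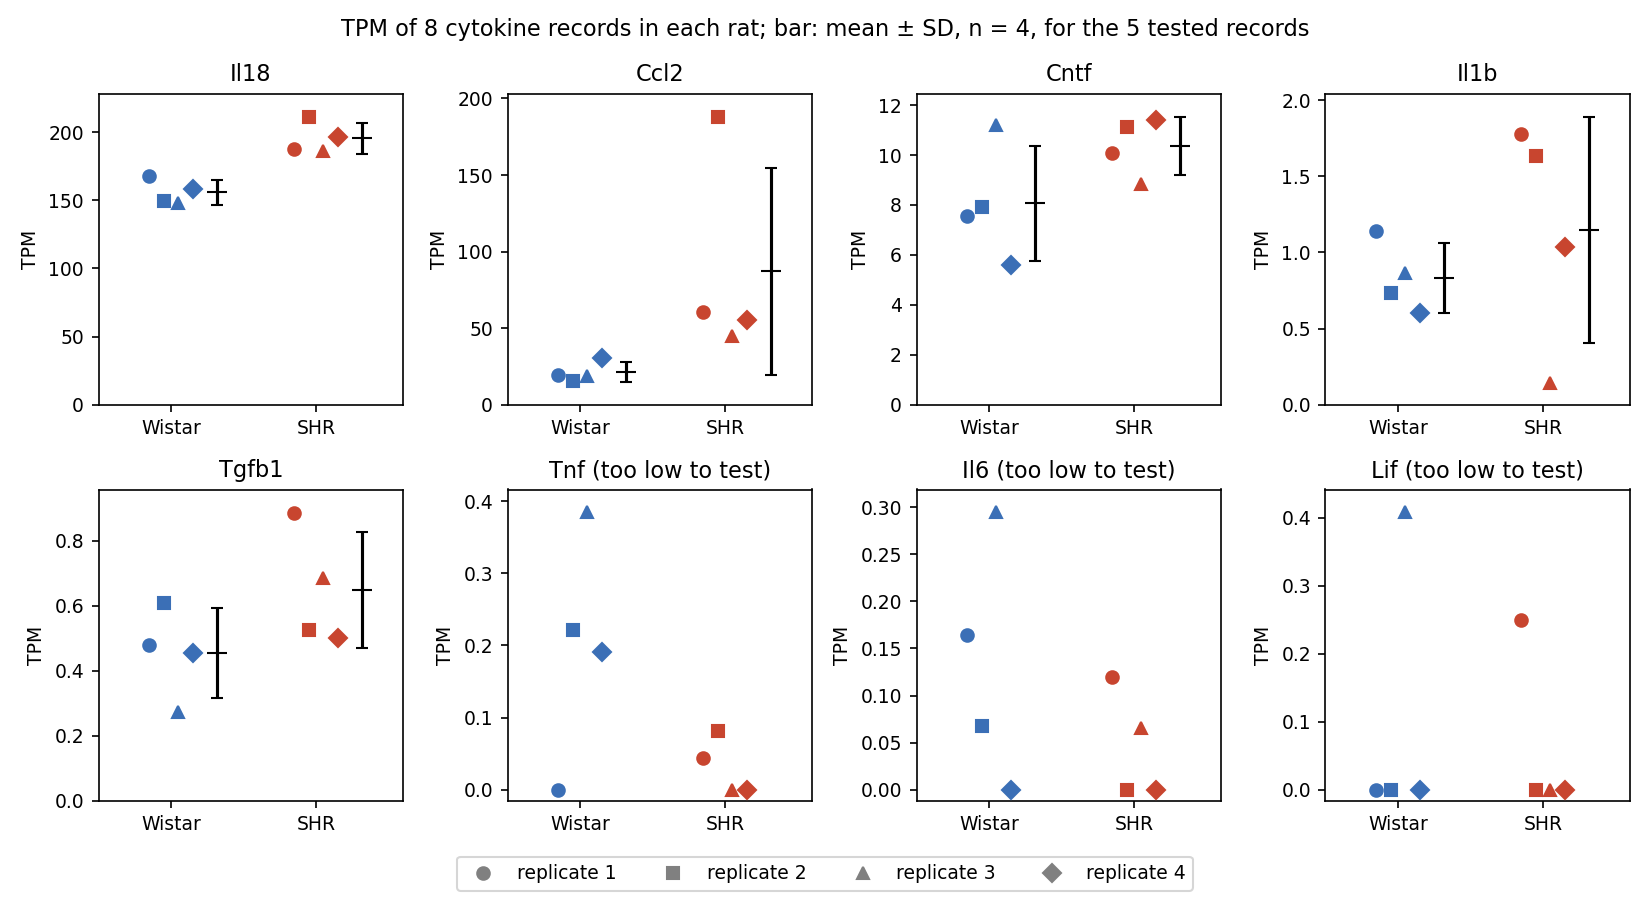
TPM of the 8 cytokine records in each of 4 Wistar rats (blue) and 4 SHR (red), with 1 symbol shape per replicate number and a vertical axis of its own in each panel. Black bars give the mean ± SD (n = 4) for the 5 records that could be tested. The strains do not overlap for Il18 and Ccl2, SHR replicate 2 reaches 188.2 TPM for Ccl2, and the panels of Tnf, Il6 and Lif all stay at or below 0.409 TPM.

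Of the 8 records, 5 passed the filter on low counts and were tested within a fit of all 13659 records that passed it. One of these 5, Ccl2, was past an adjusted p of 0.05 by edgeR's quasi-likelihood test, against 2.85% of all tested records, of which 1.16% were higher and 1.69% lower in SHR. All 5 had a positive log2 fold change by point estimate, as did 51% of all tested records. Their median was 0.50, against 0.01 over all tested records, but 4 of the 5 values were not past the threshold. TPM ranges of the strains were apart with SHR higher for 2 of the 5, Il18 and Ccl2, against 4.55% of all tested records, and apart with SHR lower for 0 of the 5, against 5.27%.

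Ccl2 had the largest fold change of the 5 tested members. Its TPM was 19.4, 15.3, 19.0 and 30.6 in Wistar replicates 1 to 4 and 60.4, 188.2, 44.95 and 55.2 in SHR replicates 1 to 4. Every SHR lay above every Wistar rat, and SHR replicate 2 stood far above the other 3 SHR, which lay close together. The means were 21.1 ± 6.58 TPM in Wistar against 87.2 ± 67.6 in SHR (SD, n = 4 each). Normalised counts ran from 185 to 383 in Wistar and from 506 to 2576 in SHR. This was a log2 fold change of 2.11 (SE 0.48, 95% interval 1.03 to 3.19), a 4.32-fold higher level in SHR (edgeR adjusted p = 0.0497). Among the 389 records past the threshold Ccl2 ranked 389, so this call lies at its edge.

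The call of Ccl2 held in 3 of 8 fits when each rat was left out in turn. The fold change stayed positive in all 8 fits that each left out a rat, with a log2 value between 1.34 and 2.36. Without SHR replicate 2 the log2 fold change was 1.34, a 2.53-fold difference, and still past the threshold (edgeR adjusted p = 0.0388). SHR replicate 2 alone reached 8.93 times the Wistar mean TPM, and the mean of the other 3 SHR was 2.54 times the Wistar mean. The call was lost without Wistar replicate 1, 2, 3 or 4 (edgeR adjusted p = 0.110, 0.159, 0.148 and 0.0836) and without SHR replicate 4 (0.0753). In the same order the log2 fold change in those fits was 2.10, 1.97, 2.06, 2.36 and 2.28. Those fits also put fewer records past the threshold (325, 237, 243, 238 and 248, against 389 with all rats). The lost calls therefore do not show a smaller difference in Ccl2. In a two-sided exact permutation test of log2(TPM + 0.1) the difference of 1.83 gave p = 0.02857, the smallest that 4 rats against 4 allow, unadjusted.

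Ccl7, which encodes the related monocyte chemoattractant MCP-3, had the pattern most like that of Ccl2 over the 8 rats. Its record (NM_001007612) had the highest correlation with Ccl2 of all tested records on the log2 CPM scale (Pearson r 0.99, Spearman rho 1, n = 8 rats that share their libraries, given as a description). Ccl7 lies next to Ccl2 in the GRCr8 annotation of RefSeq. Its TPM was 5.61, 3.94, 4.95 and 7.67 in Wistar replicates 1 to 4 and 15.3, 31.4, 11.7 and 15.1 in SHR replicates 1 to 4. Again SHR replicate 2 was the highest and the strains did not overlap. The log2 fold change was 1.77 (SE 0.37), a 3.41-fold higher level in SHR (edgeR adjusted p = 0.0325). The ratio of Ccl2 to Ccl7 TPM stayed between 3.45 and 5.99 in all 8 rats. Like Ccl2, Ccl7 lost its call without any 1 of the 4 Wistar rats (edgeR adjusted p from 0.0547 to 0.110) or without SHR replicate 4 (0.0688). The other chemokine genes of this cluster, Ccl11 and Ccl12, were looked at after the values of Ccl2 were seen. Ccl11, an eosinophil attractant, had a log2 fold change of 0.16 (edgeR adjusted p = 0.853). Ccl12, another ligand of CCR2, had a log2 fold change of -1.35 (edgeR adjusted p = 0.356).

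The promoter of Ccl7 is printed because Ccl7 rose with Ccl2, and it is the one of the pair that the promoter table holds. The 250 bases before its start lie at chr10:67513845-67514094 on the plus strand of GRCr8 (RefSeq). Capitals mark an AP-1 motif (TGANTCA) that begins 73 bases before the start and a TATA box (TATAAA) that begins 34 bases before it.
Ccl7: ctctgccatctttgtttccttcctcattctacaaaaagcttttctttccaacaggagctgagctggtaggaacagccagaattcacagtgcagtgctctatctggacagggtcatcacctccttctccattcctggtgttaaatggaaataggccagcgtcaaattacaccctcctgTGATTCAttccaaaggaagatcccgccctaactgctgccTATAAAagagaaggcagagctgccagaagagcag
In all, 5 motifs were searched on both strands in this and in 2 further promoters shown with their genes: the NF-kB motif (GGG, a pair of any bases, TTTCC), which 1.3% of the 33469 promoter windows of the same length hold, TGANTCA (6.34%), the cyclic AMP response motif TGACGT (6.95%), the STAT motif TTCNNNGAA (7.67%) and TATAAA (12.9%). TGANTCA and TGACGT share their first letters, and no matches overlapped in the windows printed. These matches are descriptions of the sequence and not evidence of binding.

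Monocytes and macrophages both make and follow these chemokines, so the macrophage markers were set beside them. Of 13 macrophage marker records tested, 0 were past the threshold by edgeR (0 also at an unadjusted p under 0.05, and 0 by DESeq2). Beside the 2.85% of all tested records, a count of 0 in so short a list says little. The macrophage records had a median log2 fold change of -0.01, and no marker was at 0 in all rats. Their summed TPM was 152.9, 154.7, 187.3 and 120.4 in Wistar replicates 1 to 4 and 247.5, 205.9, 63.7 and 77.4 in SHR replicates 1 to 4. SHR replicates 1 and 2 thus lay above all Wistar rats and SHR replicates 3 and 4 below all of them. The last pair also lay below all Wistar rats for 3 other marker lists. T cell markers summed to 5.09 TPM in both (10.4 to 14.9 in Wistar). Smooth muscle markers summed to 16.85 and 25.8 TPM (55.2 to 124.8 in Wistar), and red blood cell markers to 429 and 2299 TPM (3172 to 9633 in Wistar). No further marker list put both rats below all Wistar rats. The genes of cytokine processing, release and inhibition, listed below, did so with 44.2 and 40.7 TPM (50.8 to 84.5 in Wistar). Ccl2 in SHR replicates 3 and 4 (44.95 and 55.2 TPM) was above the highest Wistar rat (30.6), as it was in the other 2 SHR. In a fit without SHR replicates 1 and 2, added after these sums were seen, the log2 fold change of Ccl2 was 1.21 (edgeR adjusted p = 0.0476). That of Ccl7 was 1.22 (0.0627), so the call of Ccl7 ended. This fit rests on 2 SHR. It put 719 records past the threshold, against 389 with all rats, so adjusted p-values cannot be compared between the fits. The part of macrophages in the level of Ccl2 was not tested.

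**Figure D2:**
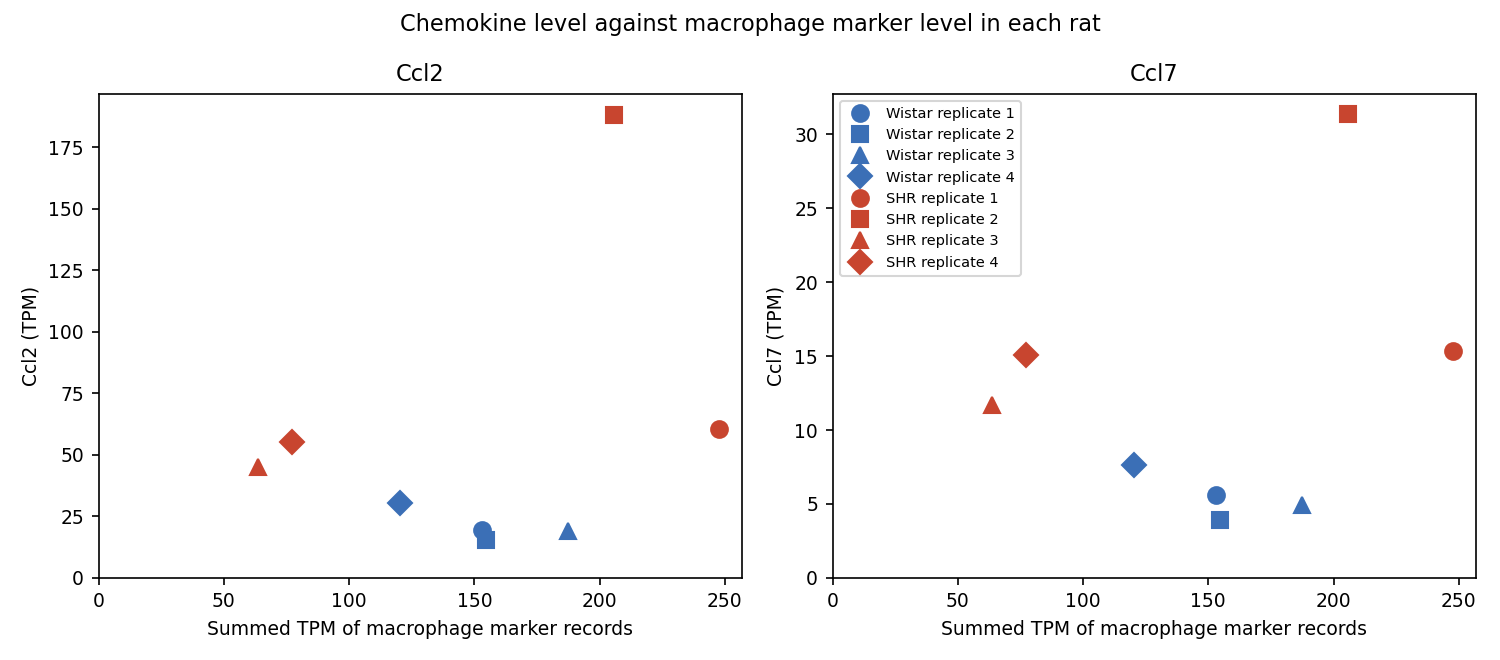
TPM of Ccl2 (left) and Ccl7 (right) against the summed TPM of the macrophage marker records, with 1 point per rat (Wistar blue, SHR red, shape by replicate). SHR replicates 3 and 4 have the lowest marker sums, 63.7 and 77.4, and lie above every Wistar rat for both chemokines.

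The summed neutrophil markers were also highest in SHR replicates 1 and 2, through S100a8 and S100a9. Of the 4 neutrophil records tested, 0 were past the threshold by edgeR, beside 2.85% of all tested records (2 at an unadjusted p under 0.05, and 2 by DESeq2). The summed TPM ran from 5.48 to 14.0 in Wistar and was 65.2, 55.2, 14.6 and 12.2 in SHR replicates 1 to 4. S100a9, a calcium-binding protein of neutrophils and monocytes, had a log2 fold change of 2.93 (edgeR adjusted p = 0.106). Its partner S100a8 had 2.02 (edgeR adjusted p = 0.128). For S100a8 every SHR lay above every Wistar rat (5.37 to 21.25 against 1.09 to 4.89 TPM), and for S100a9 the strains overlapped. The other 2 markers of the list are named after their values were seen. Lcn2, a protein of neutrophil granules, had 2.96 and 4.06 TPM in SHR replicates 1 and 2, against 3.22 to 4.03 in Wistar, and a log2 fold change of -0.23 (edgeR adjusted p = 0.720). Elane, neutrophil elastase, was highest among SHR in replicate 4 (1.076 TPM) and lowest among them in replicate 2 (0.395 TPM), with a log2 fold change of 1.33 (edgeR adjusted p = 0.405). The part of these cells in the level of Ccl2 was not tested. Over all 14 cell type lists, 0 of 82 tested marker records were past the threshold by edgeR, beside 2.85% of all tested records. At an unadjusted edgeR p under 0.05 there were 9, and DESeq2 called 5. At a share of 2.85% few calls are due in lists this short, so a count of 0 does not show equal cell composition.

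Il18 was the most abundant of the 8 cytokines and its difference between the strains was small. Its TPM was 167.7, 149.7, 147.8 and 158.0 in Wistar replicates 1 to 4 and 187.7, 211.4, 186.3 and 196.4 in SHR replicates 1 to 4. On this scale every SHR lay above every Wistar rat, with means of 155.8 ± 9.06 and 195.5 ± 11.6 (SD, n = 4 each). On the scale of normalised counts the strains overlapped, with 1464 to 1871 in Wistar and 1698 to 2363 in SHR. The log2 fold change was 0.35 (SE 0.13, 95% interval 0.07 to 0.63), a 1.27-fold difference that was not past the threshold (edgeR adjusted p = 0.199). The exact permutation test of log2(TPM + 0.1) gave p = 0.02857, unadjusted, and limma on the same TPM scale gave an adjusted p of 0.0497. With an offset for effective length Il18 was not past the threshold (edgeR adjusted p = 0.170, DESeq2 adjusted p = 0.153).

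Il1b was low and scattered. Its TPM was 1.14, 0.731, 0.864 and 0.602 in Wistar replicates 1 to 4 and 1.78, 1.64, 0.139 and 1.04 in SHR replicates 1 to 4. SHR replicates 1 and 2 were the highest of all rats and SHR replicate 3 the lowest, so the Wistar range lay inside that of SHR. Behind these levels stood 38, 20, 27 and 19 reads in Wistar and 55, 41, 4 and 34 in SHR. For SHR over Wistar its log2 fold change came to 0.51, with an SE of 0.63 and a 95% interval from -0.89 to 1.91 (edgeR adjusted p = 0.721). Between rats its biological coefficient of variation was 60.5%, against a median of 21.3% over all tested records. In the fit without SHR replicates 1 and 2 the log2 fold change was -0.50 (edgeR adjusted p = 0.718). That fit left out the highest Il1b values, so its change of sign follows largely from the choice of rats.

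Tnf and Il6 were too low to judge and were left out by the filter. Tnf had 0, 9, 18 and 9 reads in Wistar replicates 1 to 4 and 2, 3, 0 and 0 reads in SHR replicates 1 to 4, or 36 against 5 in all. The highest 3 rats were all Wistar, but Wistar replicate 1 had no read, so the strains overlapped. In TPM this was at most 0.386 in Wistar and 0.0814 in SHR (exact permutation test of log2(TPM + 0.1), p = 0.1429). A fit without the filter gave Tnf a log2 value of -2.58 (edgeR adjusted p = 0.358). Il6 had 3, 1, 5 and 0 reads in Wistar and 2, 0, 1 and 0 in SHR, at most 5 reads in any rat (exact permutation test of log2(TPM + 0.1), p = 0.2857). A count of 0 allows up to 3 reads, which is 0.0845 to 0.116 CPM (counts scaled to library size) in these libraries, and this limit covers counting error only.

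Tgfb1, which acts on fibroblasts, glia and immune cells, was low in every rat. Its TPM was 0.478, 0.609, 0.274 and 0.455 in Wistar replicates 1 to 4 and 0.887, 0.526, 0.685 and 0.500 in SHR replicates 1 to 4, from 9 to 17 reads per Wistar rat and 13 to 28 per SHR. SHR replicates 1 and 3 were the highest, and the other 2 SHR lay inside the Wistar range. The log2 fold change was 0.50 (SE 0.41, 95% interval -0.41 to 1.40), which was not past the threshold (edgeR adjusted p = 0.563).

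Cntf, the Schwann cell cytokine, was clearly detected, with 130 to 258 reads per Wistar rat and 186 to 278 per SHR. Its TPM was 7.56, 7.90, 11.2 and 5.61 in Wistar replicates 1 to 4 and 10.1, 11.1, 8.83 and 11.4 in SHR replicates 1 to 4. Wistar replicate 3 lay among the SHR, and the other 3 Wistar rats were below all of them. The means were 8.06 ± 2.32 and 10.4 ± 1.17 TPM (SD, n = 4 each). The log2 fold change was 0.39 (SE 0.23, 95% interval -0.11 to 0.90), or 1.31-fold, and was not past the threshold (edgeR adjusted p = 0.408). The interval leaves room for a level up to 1.86-fold higher in SHR. Schwann cell markers summed to between 2523 and 3048 TPM in Wistar and between 2248 and 2890 in SHR, with a median log2 fold change of -0.26. By edgeR 0 of the 16 records were past the threshold, beside 2.85% of all tested records (4 at an unadjusted p under 0.05, and 2 by DESeq2).

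Lif was at 0 in 6 of 8 rats. It had 5 reads in Wistar replicate 3 and 3 reads in SHR replicate 1, and a difference between the strains was not detectable at this depth (exact permutation test of log2(TPM + 0.1), p = 1).

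**Figure D3:**
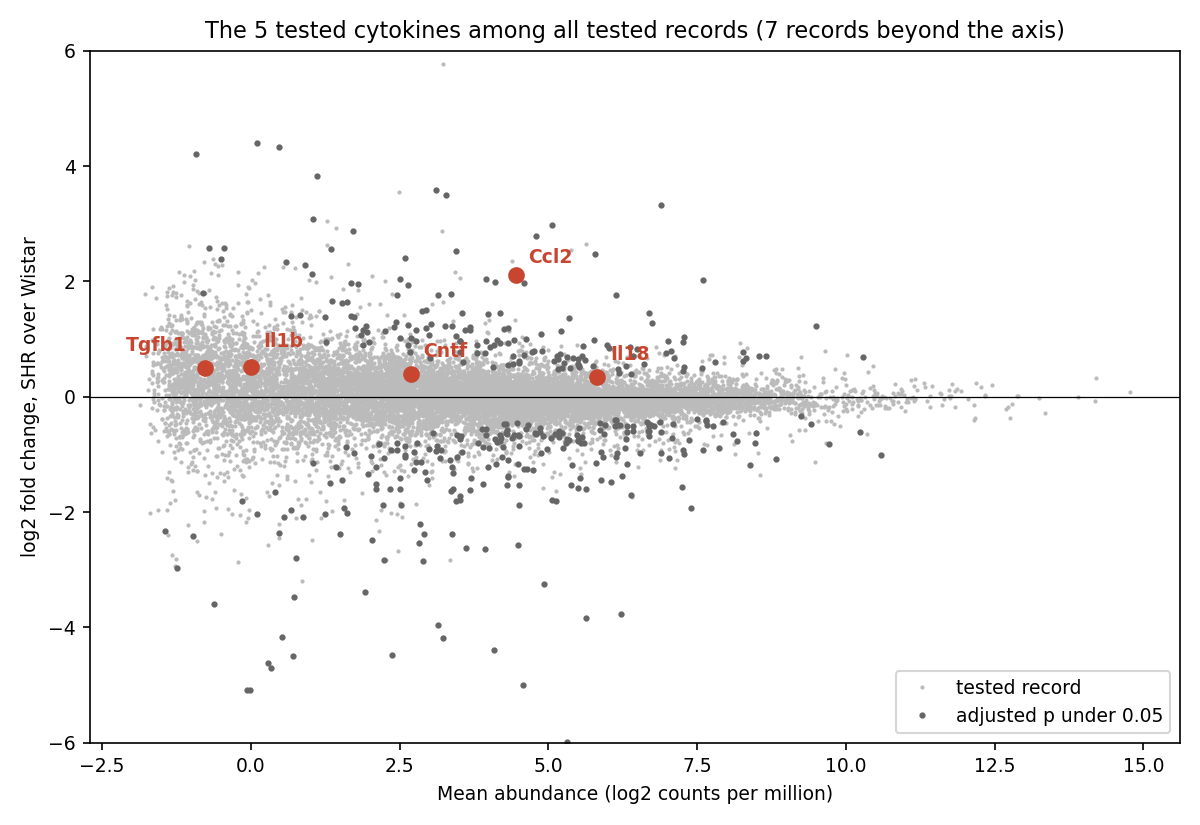
Log2 fold change (SHR over Wistar) against mean abundance (log2 CPM) of the 13659 tested records, with records past the adjusted p threshold in dark grey and the 5 tested cytokines in red. Ccl2 lies at 2.11, clear of the bulk of the records, and Il18, Cntf, Il1b and Tgfb1 lie inside it between 0.35 and 0.51. The 7 records beyond the axis limits of 6 are not drawn.

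The receptors of these cytokines and their decoys were measured next, 14 records in all. None was higher in SHR past the threshold and 1 was lower, beside 1.16% and 1.69% of all tested records. The median log2 fold change was -0.14. The lower record was one of 2 for Il1rap, the accessory protein that the interleukin-1 receptor needs for signalling. Its TPM (NM_001167840) was 3.74, 3.82, 4.65 and 4.06 in Wistar replicates 1 to 4 and 2.16, 1.90, 3.003 and 2.20 in SHR replicates 1 to 4, and the strains did not overlap. Its fitted log2 fold change was -0.81 (SE 0.15, edgeR adjusted p = 0.0190). The other Il1rap record (NM_012968) had -0.18 (edgeR adjusted p = 0.658), and reads are shared between the records, so their split is uncertain. Summed per gene, Il1rap had a log2 fold change of -0.57 and was not past the threshold (edgeR adjusted p = 0.0538). The call of the single record was also lost without Wistar replicate 2, 3 or 4 or SHR replicate 2 or 4 (edgeR adjusted p from 0.0501 to 0.0755).

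No other receptor record was past the threshold by edgeR. Of the 14 records 2 had an unadjusted edgeR p under 0.05, the lower Il1rap record and Tgfbr3. The 1 record that DESeq2 called was the same Il1rap record. Il6st, the gp130 subunit shared by Il6, Lif and Cntf, was the most abundant receptor, with 16.9 ± 3.02 TPM in Wistar against 14.9 ± 3.73 in SHR (SD, n = 4 each) and a log2 fold change of -0.16 (edgeR adjusted p = 0.671). Tnfrsf1a, the main receptor for tumour necrosis factor, had 13.4 ± 4.46 and 10.4 ± 5.29 TPM (SD, n = 4 each) and a log2 fold change of -0.34 (edgeR adjusted p = 0.679). Tgfbr3, a co-receptor for transforming growth factor beta, had -0.67 (edgeR adjusted p = 0.227). Ccr2, the receptor of Ccl2 on monocytes, had 1.59 ± 0.442 TPM in Wistar against 0.989 ± 0.934 in SHR (SD, n = 4 each), with 2.03 and 1.53 TPM in SHR replicates 1 and 2 and 0.147 and 0.254 in SHR replicates 3 and 4. The last pair had the lowest Ccr2 of all rats, and the strains overlapped (log2 fold change -0.63, SE 0.71, edgeR adjusted p = 0.694). What Ccr2 had to do with the level of Ccl2 in these rats was not tested. The receptor of Cntf, Cntfr, was at 6.62 ± 2.02 and 6.52 ± 3.03 TPM (SD, n = 4 each) and had a log2 fold change of -0.04 (edgeR adjusted p = 0.959).

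Among other cytokines and chemokines 17 records were tested, with a median log2 fold change of -0.20. Past the threshold 1 was higher in SHR (Ccl7, above) and 0 were lower, beside 1.16% and 1.69% of all tested records. A further 14 genes were too low to test, Il10 being at 0 in all rats. Il34, a ligand of the macrophage receptor CSF1R, had 49.7 ± 7.04 TPM in Wistar against 34.4 ± 6.29 in SHR (SD, n = 4 each), with a log2 fold change of -0.52 (edgeR adjusted p = 0.0999). By DESeq2 Il34 was past the threshold with a length offset (adjusted p = 0.02375) and without one (0.0312). Il15, a cytokine of the interleukin-2 family, had 34.7 ± 3.50 and 45.8 ± 3.66 TPM (SD, n = 4 each), with 0.40 (edgeR adjusted p = 0.259). TPM of Il34 overlapped between the strains in 1 pair of rats at 39.4 and 39.5, and TPM of Il15 did not overlap. Il12a, a subunit of interleukin-12, did not overlap either, with 7.12 ± 0.658 against 4.72 ± 1.27 TPM (SD, n = 4 each) and a log2 fold change of -0.58 (edgeR adjusted p = 0.230). It and Ccr2 were picked out after their values were seen.

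Genes that process, release or bind these cytokines gave 12 tested records. By edgeR 0 were past the threshold, beside 2.85% of all tested records (3 at an unadjusted p under 0.05, and 1 by DESeq2). Ltbp4 and Ltbp1, which anchor latent transforming growth factor beta to the matrix, had log2 fold changes of 0.71 and -0.68 (edgeR adjusted p = 0.174 and 0.225). Ltbp4 was the record that DESeq2 called, with a length offset (adjusted p = 0.03555) but not without one (0.06805). Adam17, the protease that sheds tumour necrosis factor from the membrane, had -0.37 (edgeR adjusted p = 0.226). Pycard, the adaptor of the inflammasome, had 13.2 ± 3.97 TPM in Wistar against 9.92 ± 4.87 in SHR (SD, n = 4 each; log2 fold change -0.36, edgeR adjusted p = 0.658). Casp1, the protease that cuts the precursors of Il1b and Il18, had 2.13 ± 0.598 and 2.70 ± 1.69 TPM (SD, n = 4 each; log2 fold change 0.39, edgeR adjusted p = 0.684).

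In the JAK-STAT, NF-kB and SMAD list 0 of 20 tested records were higher and 1 was lower past the threshold. The shares over all tested records were 1.16% and 1.69%. The lower record was Stat3, which carries the signal of gp130 to the nucleus. Its TPM was 30.6, 36.1, 37.2 and 31.8 in Wistar replicates 1 to 4 and 22.0, 18.6, 26.3 and 18.0 in SHR replicates 1 to 4. All SHR lay below all Wistar rats. The log2 fold change was -0.67 (SE 0.10, 95% interval -0.91 to -0.44; edgeR adjusted p = 0.00743), and Stat3 stayed past the threshold in 8 of the 8 fits that left out a rat. Traf6, an adaptor of the interleukin-1 receptor, had -1.04 and was not past the threshold (edgeR adjusted p = 0.0649), with no overlap of the strains. Traf6 was past it by DESeq2 with a length offset (adjusted p = 0.00201) and without one (0.00232), and in edgeR without Wistar replicate 1 (0.0343) or SHR replicate 1 (0.0462). Nfkbia, the inhibitor that NF-kB itself induces, was the most abundant gene of the list with 43.4 ± 8.61 TPM in Wistar against 45.4 ± 11.1 in SHR (SD, n = 4 each; log2 fold change 0.08, edgeR adjusted p = 0.872). Socs3, the feedback inhibitor that STAT3 induces, Socs1 and Ptgs2 were too low to test, with Socs3 at most 0.532 TPM in any rat.

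**Figure D4:**
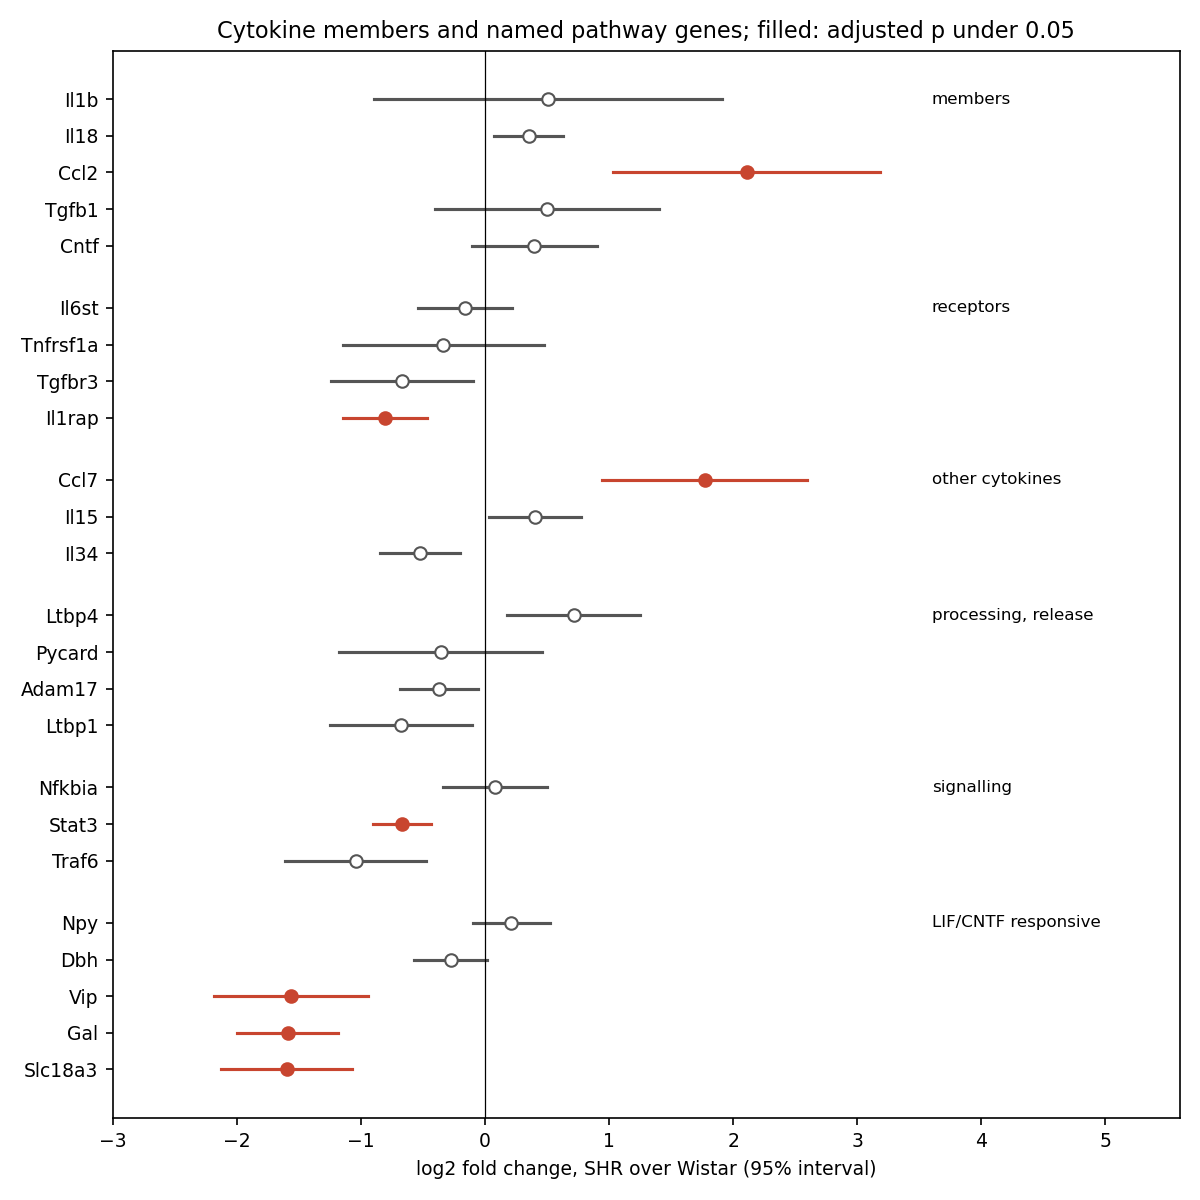
Log2 fold change, SHR over Wistar, with its 95% interval for the 5 tested cytokines and for the named records of the 5 related gene lists. Filled red points are past an adjusted p of 0.05 in edgeR. Ccl2 and Ccl7 stand to the right, and Gal, Vip, Slc18a3, Il1rap and Stat3 to the left.

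Genes that LIF and CNTF are known to change in sympathetic neurons gave 13 tested records, with a median log2 fold change of -0.21. The list was drawn up with earlier results of these data known. Past the threshold 0 were higher and 3 lower in SHR, beside 1.16% and 1.69% of all tested records. The 3 were Gal, Vip and Slc18a3, which these cytokines are known to raise. Gal, the neuropeptide galanin, had 16.7, 18.7, 13.5 and 19.2 TPM in Wistar replicates 1 to 4 and 5.64, 4.69, 6.77 and 5.39 in SHR replicates 1 to 4. The strains did not overlap, and the log2 fold change was -1.59 (SE 0.18; edgeR adjusted p = 0.00129). Vip, vasoactive intestinal peptide, had 377.6, 226.1, 174.0 and 218.6 TPM in Wistar replicates 1 to 4 and 87.2, 74.8, 123.5 and 55.7 in SHR replicates 1 to 4, again without overlap. Its log2 fold change was -1.57 (SE 0.28; edgeR adjusted p = 0.0143) and fell short of the threshold only without SHR replicate 2 (-1.53, edgeR adjusted p = 0.0521) among the fits that left out 1 rat. Slc18a3, the vesicular acetylcholine transporter, had 7.14 ± 1.52 TPM in Wistar against 2.40 ± 0.602 in SHR (SD, n = 4 each), with a log2 fold change of -1.60 (SE 0.24; edgeR adjusted p = 0.00557).

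Other members of that list did not pass. Chat, the enzyme that makes acetylcholine, had 3.19 ± 0.734 and 3.11 ± 1.19 TPM (SD, n = 4 each; log2 fold change -0.05, edgeR adjusted p = 0.948), unlike Slc18a3, which lies within the first intron of the same gene locus. The 3 tested records of Tac1, the precursor of substance P, had log2 fold changes from -0.64 to -0.21. Npy, neuropeptide Y, and Dbh, which makes noradrenaline, are lowered by these cytokines. Npy had 16564 ± 1793 TPM in Wistar against 18985 ± 1823 in SHR (SD, n = 4 each; log2 fold change 0.21, edgeR adjusted p = 0.467). Dbh had 5777 ± 683 and 4753 ± 831 TPM (SD, n = 4 each; log2 fold change -0.28, edgeR adjusted p = 0.324). The rest of the list went both ways. Sst and Slc5a7 had log2 fold changes of 0.40 and 0.14 (edgeR adjusted p = 0.394 and 0.774). Atf3 and Th had -0.11 and -0.14 (edgeR adjusted p = 0.919 and 0.459). The ligands Lif and Il6 were too low to set beside the values of this list.

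The promoters of Vip and Gal are printed because these genes fell together in SHR. The 250 bases before the start of Vip lie at chr1:44470230-44470479 on the plus strand and those of Gal at chr1:210084573-210084822 on the minus strand of GRCr8 (RefSeq). Capitals mark TGACGT in Vip, from 97 bases before the start, and TATAAA, from 175, 165 and 48 bases before the start of Vip and 41 bases before that of Gal.
Vip: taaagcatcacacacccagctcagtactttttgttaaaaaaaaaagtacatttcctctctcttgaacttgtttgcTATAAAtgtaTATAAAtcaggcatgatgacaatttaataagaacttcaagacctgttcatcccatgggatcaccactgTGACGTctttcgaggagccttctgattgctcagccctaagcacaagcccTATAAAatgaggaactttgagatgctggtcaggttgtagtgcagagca
Gal: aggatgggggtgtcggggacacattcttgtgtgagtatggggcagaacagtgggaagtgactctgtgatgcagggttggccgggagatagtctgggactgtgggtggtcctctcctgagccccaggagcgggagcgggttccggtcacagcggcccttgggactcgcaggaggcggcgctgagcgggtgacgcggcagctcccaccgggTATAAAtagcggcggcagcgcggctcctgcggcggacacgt
Neither window held TTCNNNGAA, TGANTCA or the NF-kB motif, which says only that these letters are not in these 250 bases.

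**Figure D5:**
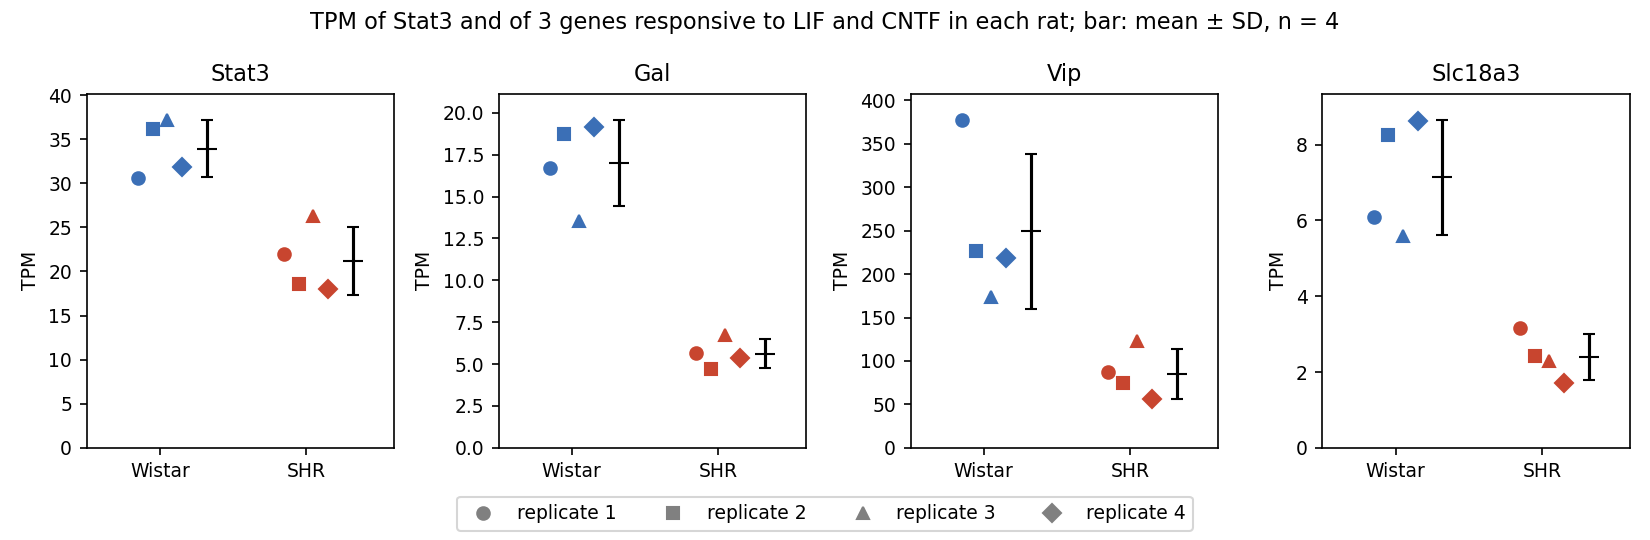
TPM of Stat3, Gal, Vip and Slc18a3 in each of 4 Wistar rats (blue) and 4 SHR (red), with the mean ± SD (n = 4) beside the points and axes that start at 0. In all 4 panels every SHR lies below every Wistar rat, as in 5.27% of all tested records. These 4 were drawn because they were past the threshold, so the separation is not further evidence.

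Over the 5 related gene lists, 6 of 76 tested records (69 genes) were past the threshold, 1 higher and 5 lower in SHR, or 7.89%, beside the 2.85% of all tested records. The lists were drawn up with earlier results of these data known, so this share is a description.

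The records whose log2 CPM followed each tested cytokine most closely over the 8 rats are given as a description, since all points share their libraries. For Il18 these were Lamp5 (Pearson r 0.99, Spearman rho 0.976), a membrane protein of neurons, and Cnih4 (0.989, 0.976). For Il1b they were Ctse (0.971, 0.929), the protease cathepsin E, and Abhd14b (0.96, 0.976). After Ccl7, Ccl2 was closest to Npr2 (0.944, 0.786), a natriuretic peptide receptor. Tgfb1 was closest to Sec16b (0.939, 0.905) and Pkp2 (0.938, 0.833), and Cntf to Rpain (0.963, 0.952) and Sh3bp2 (0.955, 0.905). Ccl7 was the only one of these 10 records past the threshold between the strains.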

How the data were processed

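RNA of right stellate ganglia from 4 Wistar rats and 4 SHR was compared. The authors quantified paired reads with Salmon 0.8.2 against the rn6 RefSeq mRNA set, in stranded mode with corrections for GC and positional bias, after FastQC 0.11.7, and deposited for each record an estimated count (Salmon's expected count, which can be fractional) and a TPM, per the file headers, beside the record length and effective length. The labels name a TruSeq Stranded mRNA kit and a Micro extraction kit, and the study's methods give RNeasy Mini extraction with SMARTer amplification. The counts of the 8 members were whole numbers in every rat.

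Symbols came from RefSeq (GRCr8) by accession. Of 18314 records 17360 had 1 symbol, and 162 of 173 listed symbols had a record. Estimated counts were rounded and fitted for all 8 rats with edgeR 4.0.16 in R 4.3.3 (TMM, filterByExpr, glmQLFit, glmQLFTest), with Benjamini-Hochberg adjustment over 13659 records and a threshold of 0.05. A normalised count is a TMM-scaled count at the mean library size. The SE was obtained from the log2 fold change and the square root of its F statistic, and the 95% interval is approximate. The fit was tested on simulated data. TPM differences were compared on log2(TPM + 0.1) with a two-sided exact permutation test over 70 assignments, unadjusted. Fold changes on that scale understate those of low records. Alternatives used DESeq2 1.42.0 and limma 3.58.1, other scaling and filters, a replicate block and removal of rats. The labels do not tell whether rats shared an extraction day.

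All 8 members were named. From each related list every record past the threshold, the 2 of smallest p and the 2 of highest TPM were named, and for each tested member the 2 most correlated records (log2 CPM, prior count 2). Some list genes were named outside that rule. They include Ccr2, Cntfr, Il10, Il12a, Casp1, Socs1, Socs3, Ptgs2, Chat, Tac1, Sst, Slc5a7, Atf3 and Th. The members and lists were chosen with earlier results of these data known. Within each strain no pair of libraries was alike beyond sampling noise.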

Additional observations from a re-analysis of the deposited data

Results flagged for a closer look

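In groups of 4 rats a value was looked at again where its distance to the nearest other rat took up nearly the whole range of its group. Of 82 groups of 4 tested in this way 8 stood out, against 4.1 that chance alone would give at 1 in 20. Ccl2 in SHR replicate 2 was 188.2 TPM, with the other SHR between 44.95 and 60.4. Lif was 0.409 TPM in Wistar replicate 3 and 0.249 in SHR replicate 1, with 0 in the other rats of each strain, so both values rest on a few reads. The summed T cell markers were 14.9 TPM in Wistar replicate 2, with 10.4 to 11.1 in the other Wistar rats. The B cell markers, which were all too low to test, summed to 1.35 TPM in Wistar replicate 4 (0.185 to 0.246 in the others) and to 0.844 in SHR replicate 1 (0.0811 to 0.209 in the others). In SHR replicate 1 the mast cell markers summed to 12.3 TPM (3.95 to 5.20 in the other SHR) and the adipocyte markers to 149 TPM (6.48 to 12.3 in the other SHR). What these sums had to do with the cytokine levels of that rat was not tested.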

How the results depend on the processing

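The 389 records past the threshold became 851 by DESeq2 with a length offset, 782 without it, 132 with the replicate block and 719 without SHR replicates 1 and 2 together, and ran from 237 to 454 when each rat was left out. Deviations from the strain means were not positively correlated in same-numbered rats (r from -0.29 to -0.0381, mean -0.152). The mean of 0.0505 for other pairs follows largely from that centring. These values cannot show whether the numbers pair rats. The replicate block gave Ccl2 a log2 fold change of 1.80 (edgeR adjusted p = 0.207). With DESeq2's size factors in edgeR Ccl2 had 2.12 (adjusted p = 0.0524). Its adjusted p was 0.0080 by DESeq2 with a length offset, and 0.0323 to 0.159 with each rat left out (log2 1.34 to 2.36). Il18 passed only with limma on log2(TPM + 0.1), at 0.33 (adjusted p = 0.0497). Il1b reversed to -0.50 without SHR replicates 1 and 2, the rats with its highest values, so that reversal is no separate test. Its TPM difference ran from -0.23 to 0.76 with each rat left out. That of Lif ran from -0.59 to 0.45, of Tnf from -1.49 to -0.73 and of Cntf from 0.24 to 0.56. Nfkbia reversed to -0.19 without SHR replicates 1 and 2 and ran from -0.10 to 0.22 with each rat left out. Counts per list also moved. Receptors gave 0 when records were summed per gene and 0 to 1 with each rat left out. Other cytokines gave 2 by DESeq2, 3 without SHR replicates 1 and 2 and 0 to 2 with each rat left out. Processing genes gave 1 and 2 in the first and second of these, signalling genes gave 2 by DESeq2 and 1 to 2 with each rat left out, and the LIF and CNTF list 2 to 3. Of 380 values for 19 named list genes 349 kept their direction and side of the threshold, 20 lost and 8 gained a call, and 3 reversed. The causes were not tested. A minimum of 10 counts in every rat left out Il1b and Tgfb1, so no value was obtained for them. Depth limits Il6, Tnf and Lif.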
